A study of Caenorhabditis elegans with 6 samples.

Results

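A set of 7 genes of male tail development were followed through an RNA sequencing study of Caenorhabditis elegans larvae. They are the genes mab-3, mab-5, mab-7, mab-9, mab-20 and mab-21, whose name stands for "male abnormal", and dmd-3, which acts with mab-3. They are 7 of the 41573 gene names in the count tables. The set was proposed because the mab name family was thought to hold an unusual share of higher levels in the strain hs::lin-29, and mab-10, a cofactor gene of lin-29, was kept out of it. The members were therefore chosen on the same comparison that is described here. Their differences, and whether they passed the threshold, are given as a description only. Their p-values are not printed, and nothing is supported with them. Of the 5 with enough reads to be fitted, mab-3 was higher, mab-21 was lower and 3 did not pass the threshold, while mab-20 and dmd-3 were hardly counted at all.

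The tail of the male worm is built in late larval life, when seam cells give rise to the sensory rays and the cells of the tail tip fuse and retract. DM domain transcription factors, relatives of the fly gene doublesex, drive the male side of this program, a Hox gene and a T-box gene set the posterior fates it needs, and signalling by TGF-beta and semaphorins gives single rays their identity and keeps them apart. Its timing belongs to the heterochronic pathway: the RNA-binding protein LIN-41 holds back lin-29, mab-10, mab-3 and dmd-3 in younger larvae. The product of lin-29, which binds DNA through zinc fingers, is the last step of that pathway.

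The data are 6 libraries of RNA from whole larvae, with 3 from each of the strains hs::control and hs::lin-29. In both strains, synchronized larvae were raised at 20 °C, shifted to 37 °C for 30 min as L3 larvae, 28 h after they were first fed, and collected 1 h after their return to the growth temperature. By design, the strain hs::lin-29 turns on lin-29 when heated, and all 6 libraries had the heat shock. The labels give neither the sex of the animals nor what the hs::control strain carries, and they do not say whether replicates were separate cultures, so errors may be technical only.

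Between 14553652 and 17303509 reads were assigned to genes in each library. Levels are CPM, read counts relative to the library total, scaled with TMM factors, and a strain's value is the mean ± SD of 3 libraries. Replicate 1 of hs::control was far from its group on principal component 2, at 45.7 where replicates 2 and 3 were at -21.4 and -17.7, and calls that are lost without it are given with the result. In replicates 1 to 3, lin-29 had 49.8, 43.8 and 45.8 CPM (hs::control) against 131, 517 and 339 CPM (hs::lin-29). Transgene reads cannot be separated from those of the endogenous gene, and the level in hs::lin-29 differed widely between libraries. Because the RNA was from whole larvae, fewer cells of a type and less RNA per cell cannot be told apart.

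mab-3 encodes a DM domain transcription factor that promotes ray formation and, in the intestine of males, keeps the yolk protein genes off. It was counted 39, 38 and 37 times in the hs::control libraries and 73, 51 and 92 times in the hs::lin-29 libraries. Scaled, these were 2.78, 2.08 and 2.07 CPM against 4.38, 3.67 and 5.59 CPM. Every hs::lin-29 library lay above every hs::control library, although the level was low in both strains. The mean went from 2.31 ± 0.404 to 4.55 ± 0.969 CPM, which was 1.98-fold higher (log2 fold change 0.99, standard error (SE) 0.24).

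dmd-3, the DM domain gene best known for driving retraction of the male tail tip, gave 1 read in hs::control replicate 2 and none in the other 5 libraries. A count of 3 would correspond to between 0.165 and 0.216 CPM, depending on the library, and covers counting error only. No level is read from this, because genes with several annotated transcripts were often listed at 0 in every library: 5.30% of the 12253 protein-coding genes with 1 transcript in the WBcel235 annotation, 22.1% of the 3091 with 2 and 33.9% of the 2125 with 3 or more. dmd-3 has 2 annotated transcripts. mab-20 and the DM domain gene mab-23, both listed at 0, have 4 and 2, whereas mab-3, with 3, was counted.

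mab-5 is a Hox gene of the Antennapedia type that acts in the posterior body, where it directs ray lineages and the migration of neuroblasts. Its level was 12.7, 13.3 and 13.6 CPM in hs::control and 15.5, 16.1 and 14.6 CPM in hs::lin-29. The strains did not overlap, but the gap was small: the mean was 13.2 ± 0.470 against 15.4 ± 0.749 CPM, a log2 difference of 0.23 (SE 0.12). It had the tightest replicates of the 5 members fitted, with an SD of 3.56% of the mean in hs::control and 4.85% in hs::lin-29. mab-5 did not pass the threshold.

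mab-9 encodes a T-box transcription factor needed for the hindgut and the male tail. Its level was 6.91, 8.23 and 9.24 CPM in the hs::control libraries against 8.70, 9.72 and 6.86 CPM in those of hs::lin-29. The strains overlapped over nearly their whole range, with a log2 difference of 0.05 (SE 0.18). The sign turned to -0.05 without hs::control replicate 1 and to -0.06 without hs::lin-29 replicate 2, so no direction is given for mab-9.

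mab-21, the founding member of a conserved gene family, sets the identity of a single ray and interacts genetically with the TGF-beta pathway. Its level was 21.8, 27.7 and 26.2 CPM in hs::control and 16.3, 12.4 and 14.6 CPM in hs::lin-29. All hs::lin-29 libraries lay below all hs::control libraries, and the library with the most lin-29, hs::lin-29 replicate 2, had the lowest mab-21 of its strain, the lowest mab-3 and the highest mab-5. The mean was 25.2 ± 3.07 against 14.4 ± 1.95 CPM, 1.75-fold lower in hs::lin-29 (log2 fold change -0.81, SE 0.14). mab-21 lies within the gene sel-2, on the opposite strand, and none of its 5 exons overlaps a sel-2 exon in the WBcel235 annotation. sel-2 was at 199 ± 21 CPM in hs::control and 221 ± 12.5 CPM in hs::lin-29 (log2 fold change 0.15, SE 0.11), so its level did not move down with that of mab-21.

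mab-7 encodes an epidermal membrane protein that shapes the rays. It had 36.5, 25.7 and 28.3 CPM in hs::control and 27.2, 28.6 and 19.9 CPM in hs::lin-29, and the strains overlapped. The log2 difference was -0.26 (SE 0.17), and it was -0.10 without hs::control replicate 1, the library with the highest mab-7 level. mab-20, which encodes a secreted semaphorin that keeps neighbouring rays from fusing, was listed at 0 in every library and has no level here.

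**Figure D1:**
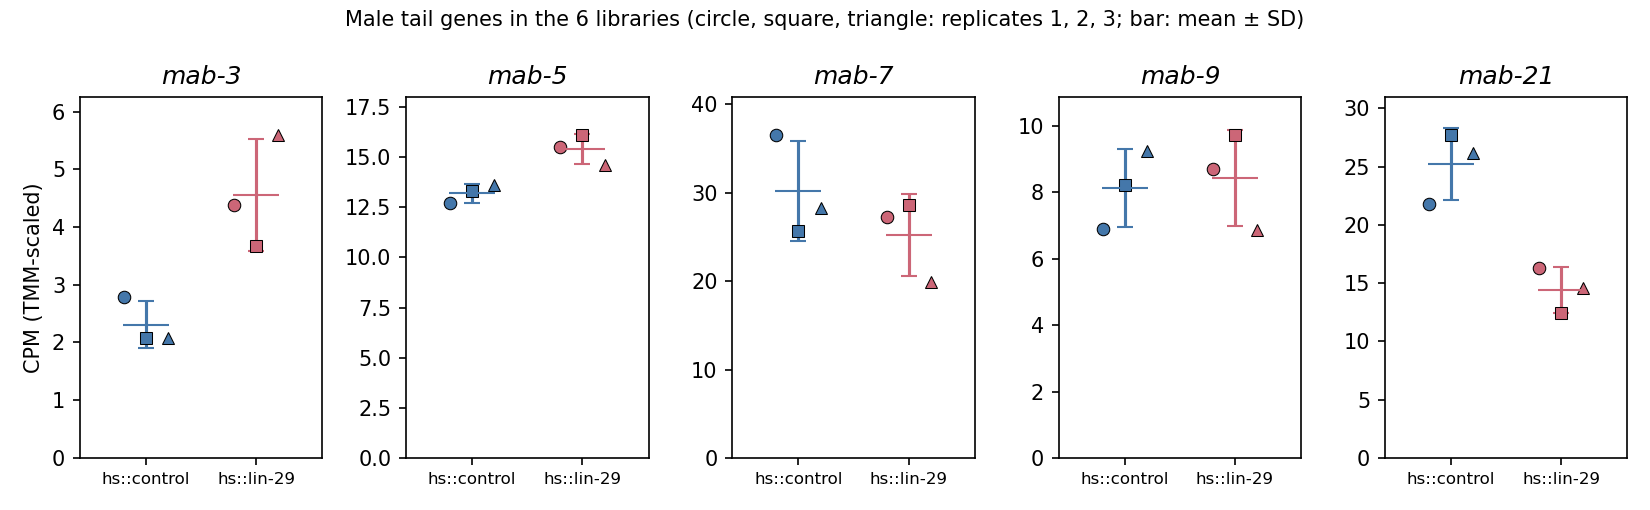
Level in CPM (linear axis from 0) of the 5 fitted genes in each library, with hs::control in blue and hs::lin-29 in red; symbols mark replicates and bars the mean ± SD of 3 libraries. mab-3 was higher in all 3 hs::lin-29 libraries and mab-21 lower in all 3, with mab-5 slightly apart and mab-7 and mab-9 overlapping.

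A gene counted as past the threshold where edgeR's quasi-likelihood F test gave it a Benjamini-Hochberg adjusted p under 0.05 over all 13045 genes tested. Of the 7 members 5 could be fitted, each with at least 37 reads in every library, and 2 of these passed, mab-3 on the higher side and mab-21 on the lower side. Over all genes 6.60% passed, 2.46% higher and 4.14% lower. The libraries of the strains did not overlap for 3 of the 5, mab-3, mab-5 and mab-21, as for 23.2% of all genes (11.3% higher and 11.9% lower). The log2 fold changes lay above 0 for 3 and below 0 for 2, with a median of 0.05 beside 0.01 over all genes. Among the log2 fold changes of all tested genes mab-3 stood at the 97.7th percentile, mab-5 at the 80.7th, mab-9 at the 56.6th, mab-7 at the 19.4th and mab-21 at the 4.48th. Since the comparison chose the members, none of these shares is evidence about them.

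The call of mab-3 was the less stable of the pair. mab-3 no longer passed when any library but hs::control replicate 1 was left out, nor with library totals as the only scaling or a replicate block. With each of the 6 libraries left out in turn its log2 fold change ran from 0.81 to 1.13. mab-21 did not pass without hs::control replicate 2 or without hs::control replicate 3, with log2 fold changes of -0.75 and -0.79. Over the other left-out libraries it passed, between -0.91 and -0.71. Both kept their sign under all 15 alternatives.

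**Figure D2:**
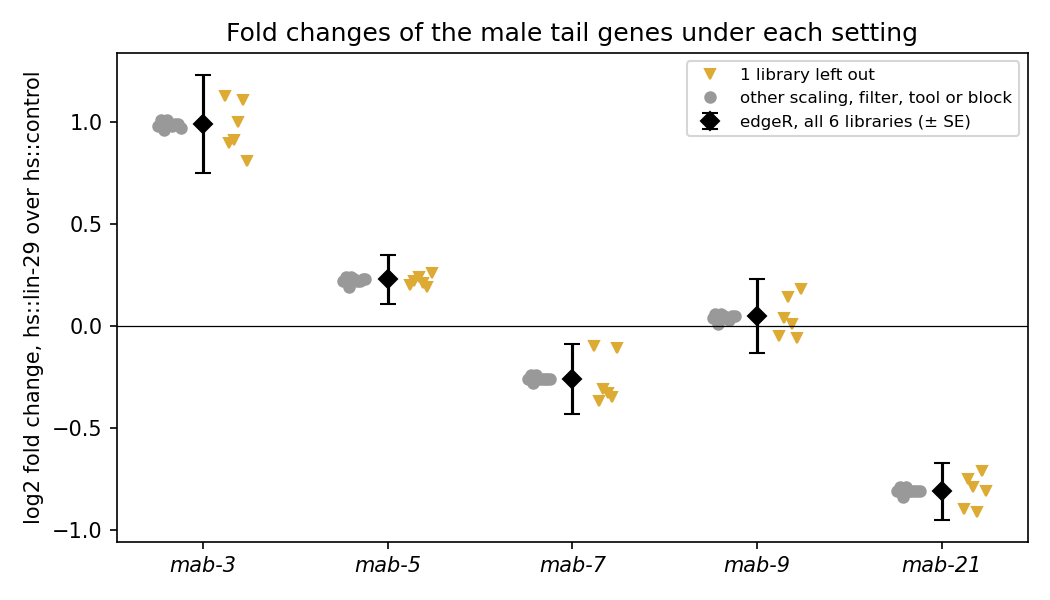
Log2 fold change of hs::lin-29 over hs::control for each fitted gene, with the value from all 6 libraries ± SE (diamond), the values with 1 library left out (triangles) and those under other scalings, filters, tools or a replicate block (circles). mab-3 stays between 0.81 and 1.13 and mab-21 between -0.91 and -0.71, while mab-9 crosses 0.

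Levels of different genes were compared per kb of annotated exon. In hs::control the order was mab-7 at 24.9 ± 4.66, mab-21 at 20.3 ± 2.46, mab-5 at 12.0 ± 0.426, mab-9 at 5.96 ± 0.857 and mab-3 at 1.23 ± 0.216 CPM per kb. The libraries of mab-7 and mab-21 overlapped, from 21.2 to 30.2 and from 17.5 to 22.2 CPM per kb, so these neighbours do not differ beyond their spread, and the lower steps did not overlap. In hs::lin-29 mab-7 was again first, at 20.8 ± 3.84, but mab-5, at 14 ± 0.679, came before mab-21, at 11.6 ± 1.57, with mab-9 at 6.18 ± 1.06 and mab-3 at 2.43 ± 0.517 CPM per kb. Here mab-5 ran from 13.3 to 14.6 and mab-21 from 9.93 to 13.1 CPM per kb, a narrow gap. mab-3 has 3 annotated transcripts and the other 4 have 1, so its level per kb is the least certain.

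**Figure D3:**
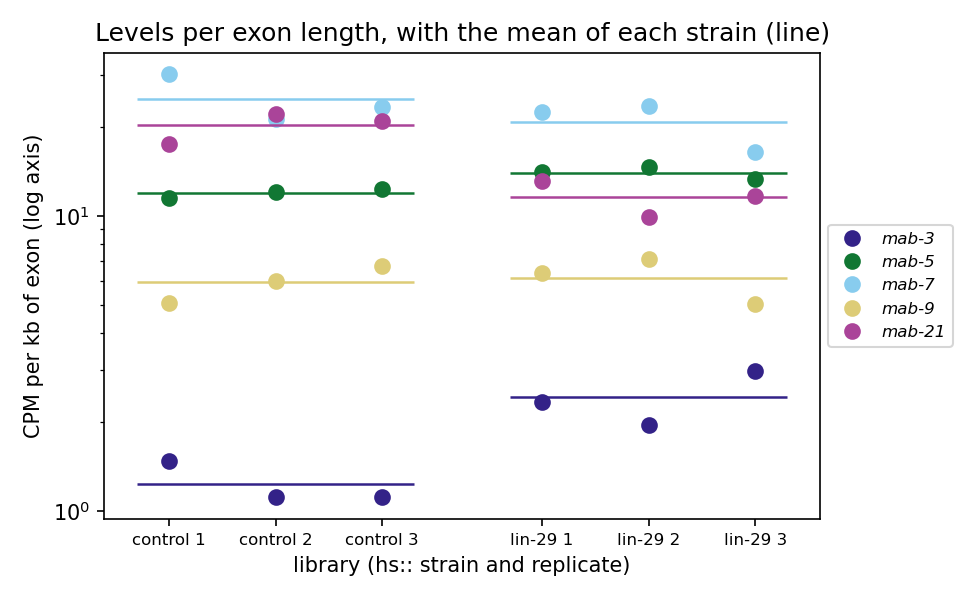
Level in CPM per kb of exon (log axis) of the 5 fitted genes in each of the 6 libraries, with a line at the mean of each strain. mab-21 lies above mab-5 in the 3 hs::control libraries and below it in the 3 hs::lin-29 libraries, and mab-3 is lowest throughout.

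Ratios of 2 counts within a library do not depend on how libraries are scaled. There were 1.72, 2.09 and 1.93 reads of mab-21 for each read of mab-5 in hs::control and 1.05, 0.768 and 1.00 in hs::lin-29. For each read of mab-3 there were 7.85, 13.3 and 12.6 reads of mab-21 in hs::control and 3.71, 3.37 and 2.62 in hs::lin-29. Neither ratio overlapped between strains. This had to follow from the levels above, since mab-21 was lower and mab-3 and mab-5 were higher in every hs::lin-29 library. Reads of mab-5 for each read of mab-3 numbered 4.56 to 6.57 in the controls and 2.62 to 4.39 with hs::lin-29, also apart. The ratio of mab-7 to mab-5 was apart as well, at 1.94 to 2.88 and 1.36 to 1.77, although mab-7 itself overlapped. The ratio of mab-9 to mab-5 reads did overlap: it was 0.545 to 0.679 in the controls and 0.469 to 0.603 with hs::lin-29. A ratio shows unequal change and not which of the 2 genes changed.

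The likeness of the 5 profiles varied from pair to pair. The root mean square distance between log2 CPM profiles, each centred on its own mean over the 6 libraries, was smallest for mab-5 and mab-9 (0.16) and largest for mab-3 and mab-21 (0.91). The median distance of all compared genes from mab-5 was 0.224 and from mab-9 0.273, so this pair was nearer than a typical gene, while the median from mab-3 was 0.54 and from mab-21 0.477. The measure is small for any 2 genes that change little, as mab-5 and mab-9 did, with log2 differences of 0.23 and 0.05. A small distance therefore does not show shared regulation. By the same measure the nearest of 11935 other genes with at least 1 CPM were F23A7.4 (0.104) and Y50D4B.3 (0.121) for mab-3, and Y53G8B.2 (0.0656) and tat-2 (0.0663) for mab-21. They were R02D5.8 and Y32H12A.4 for mab-5, efl-3 and the piRNA locus 21ur-11407 for mab-7, and F54B11.9 and C03A3.1 for mab-9. The locus 21ur-11407 was at 221 ± 42.6 CPM in hs::control and 176 ± 33.2 CPM in hs::lin-29, and whether these reads came from the piRNA itself was not tested. Y50D4B.3 was at 16.3, 10.7 and 12.5 CPM in hs::control against 26.9, 20.4 and 27 CPM. tat-2 was at 33.8, 44.6 and 43 against 26.0, 22.2 and 24.8 CPM.

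The rest of the name family holds mab-10, mab-23 and mab-31. Of the 9 names beginning with mab, 7 were tested. The name family prompted the choice of members on this comparison, so the values of these genes too are only a description. mab-10 rose, from 52.4, 40.9 and 45.1 CPM in hs::control to 90.3, 116 and 144 CPM in hs::lin-29, with no overlap (2.53-fold, log2 fold change 1.34, SE 0.17). mab-31, which patterns the rays together with the TGF-beta pathway, was at 73.2 ± 3.57 in hs::control and 57.1 ± 4.13 CPM in hs::lin-29. It did not pass (log2 fold change -0.36, SE 0.09), although the strains did not overlap, at 69.3 to 76.4 against 53.3 to 61.5 CPM. mab-31 overlaps cogc-1 on the other strand, and the strand setting of the counting is not given in the sources used here. lin-41, with 192, 189 and 221 CPM in hs::control against 193, 214 and 154 CPM, overlapped between the strains.

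Companion genes were taken from lists by role. Over all genes tested, 2.46% passed higher, 4.14% passed lower and 48.6% had a log2 fold change below 0. Among 5 other DM domain genes tested, dmd-8 rose and none fell. dmd-8 went from 1.92, 4.66 and 5.38 to 9.66, 10.5 and 15 CPM (2.90-fold, log2 fold change 1.53 with an SE of 0.33 and an edgeR adjusted p of 0.02689). Its lowest value was in hs::control replicate 1, and the call was lost with library totals only and when replicate 2 or 3 of either strain was left out (adjusted p up to 0.0805, from 0.0002103 over all alternatives). The other 4, dmd-4, dmd-5, dmd-9 and dmd-10, had log2 fold changes from 0.05 to 0.12. The median of the 5 was 0.11.

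In the list of genes for tail tip shaping, 4 of 10 tested rose and none fell, with a median log2 fold change of 0.16. Over all genes 2.46% passed higher. The count and the median include lin-29, which the strain turns on by design. They also include mab-10, whose name family prompted the choice of members on this comparison, so neither gene is a result of the list. Of the 4, the largest were lin-29 and mab-10. The others were the cell fusion gene aff-1, from 7.54 ± 0.466 to 13.6 ± 3.69 CPM, and the nuclear receptor gene nhr-25, from 41.9 ± 7.17 to 62.5 ± 6.11 CPM. Both of these calls, aff-1 at an adjusted p of 0.03748 and nhr-25 at 0.041 by edgeR, were lost when replicate 2 or 3 of either strain was left out, where the count was 2, that of aff-1 also without hs::control replicate 1, with library totals only and with limma-voom, and that of nhr-25 also without hs::lin-29 replicate 1 (adjusted p up to 0.1597 and 0.1324 over all alternatives, from 0.000647 and 0.0002565). The nuclear receptor gene nhr-67, which works with dmd-3 in the tail tip, was at 10.1 ± 0.547 and 12.0 ± 0.699 CPM and did not pass. The fusion gene eff-1 was listed at 0 in every library.

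Genes of the TGF-beta Sma/Mab pathway, in which mab-21 has its genetic partners, held 3 falls and no rise among 9 tested. The pathway genes sma-4 and sma-9 were listed at 0 in every library and sma-10 had too few reads to be tested, so these have no value here. Over all genes 4.14% passed lower. The log2 fold change was below 0 in all 9, as for 48.6% of all genes, and its median was -0.35. In lon-1 it was only -0.01, with 173 ± 31.8 and 172 ± 31.4 CPM. The co-receptor gene drag-1 fell from 17.0 ± 0.542 to 11 ± 0.955 CPM, a log2 fold change of -0.63 (SE 0.12). The Smad gene sma-2 went from 21.1 ± 1.69 to 13.9 ± 0.848 CPM (-0.60, SE 0.12), and lon-2, which encodes a glypican that restrains the ligand, from 22.2 ± 2.14 to 15.6 ± 1.51 CPM (-0.51, SE 0.13). Adjusted p by edgeR was 0.01781 for drag-1 and sma-2 and 0.04878 for lon-2. The ligand gene dbl-1 was at 34.8 ± 5.65 and 30.6 ± 2.37 CPM and did not pass. The count of falls was 0 without hs::control replicate 2, hs::control replicate 3 or hs::lin-29 replicate 2, and 1 without hs::lin-29 replicate 3 (edgeR adjusted p over all alternatives 0.002208 to 0.07502 for drag-1, 0.001917 to 0.07593 for sma-2 and 0.01939 to 0.1664 for lon-2). The call of lon-2 was the least stable, lost in 9 of 15 alternatives, among them leaving out hs::control replicate 1, upper-quartile factors and library totals only, with 2 calls left in each. DESeq2 called 4 of the 9 and limma-voom 2.

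None of 8 Hox genes and cofactors passed in edgeR, DESeq2 or limma-voom, and 2 had an unadjusted p under 0.05 in edgeR. These were the posterior Hox gene php-3, at 13.3 ± 1.40 and 18.1 ± 2.05 CPM (log2 fold change 0.45), and the cofactor gene ceh-20, at 71.9 ± 3.76 and 59.7 ± 1.95 CPM (-0.27). The Hox gene egl-5, which also patterns rays, stood at 6.38 ± 0.524 and 6.65 ± 0.228 CPM. Of the T-box genes beside mab-9 only 4 had enough reads and none passed, with none under an unadjusted p of 0.05 in edgeR and none by DESeq2 or limma-voom. The smallest p were those of tbx-2, the highest of them at 38.2 ± 5.05 and 40.7 ± 3.11 CPM, and of mls-1, at 1.25 ± 0.443 and 1.42 ± 0.260 CPM.

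Of 6 semaphorin, plexin and ephrin genes, listed as companions of mab-20, none passed in edgeR or limma-voom and 1 did in DESeq2. An unadjusted p under 0.05 in edgeR was found for 1. That gene in edgeR was the semaphorin gene smp-2, at 88.9 ± 4.99 and 70.3 ± 6.15 CPM (log2 fold change -0.34, SE 0.10). The ephrin gene efn-2 was next, at 48.0 ± 1.94 and 41.2 ± 9.70 CPM. plx-2, which encodes the plexin that receives MAB-20, was at 49.9 ± 4.36 and 51.1 ± 0.683 CPM.

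Among 10 regulators of the ray lineage none passed in edgeR or limma-voom, 1 did in DESeq2 and 4 had an unadjusted p under 0.05 in edgeR. The smallest p were those of the forkhead gene unc-130, at 12.1 ± 0.595 and 16.7 ± 1.37 CPM (log2 fold change 0.47), and of bro-1, which encodes a partner of the RUNX protein RNT-1, at 5.57 ± 0.334 and 3.48 ± 0.809 CPM (-0.69). The proneural gene lin-32, which makes the ray neurons, was near 1 CPM in both strains (0.910 ± 0.614 and 1.06 ± 0.291).

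Of 8 genes for ray shape and matrix, to which mab-7 is related by function, tsp-15 fell, from 31.1 ± 3.07 to 22.2 ± 2.31 CPM (adjusted p 0.04797 by edgeR), and none rose. That tetraspanin gene no longer passed when replicate 2 or 3 of either strain was left out, nor with upper-quartile factors, library totals or limma-voom (adjusted p 0.01879 to 0.1689 over all alternatives). Without hs::control replicate 1 the list held 2 calls. The ray gene ram-5 was at 7.97 ± 1.74 and 9.64 ± 2.10 CPM.

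The yolk protein genes, which MAB-3 represses in the male intestine, were low in both strains, with a summed level of 24.1 to 54.6 CPM in hs::control and 24.5 to 47.7 CPM in hs::lin-29. None of 5 passed in edgeR, DESeq2 or limma-voom or had an unadjusted p under 0.05 in edgeR. vit-1 had the smallest p, at 15.9 ± 2.93 and 12.2 ± 2.12 CPM, and vit-6 was next, at 7.53 ± 4.43 and 10.7 ± 4.17 CPM.

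**Figure D4:**
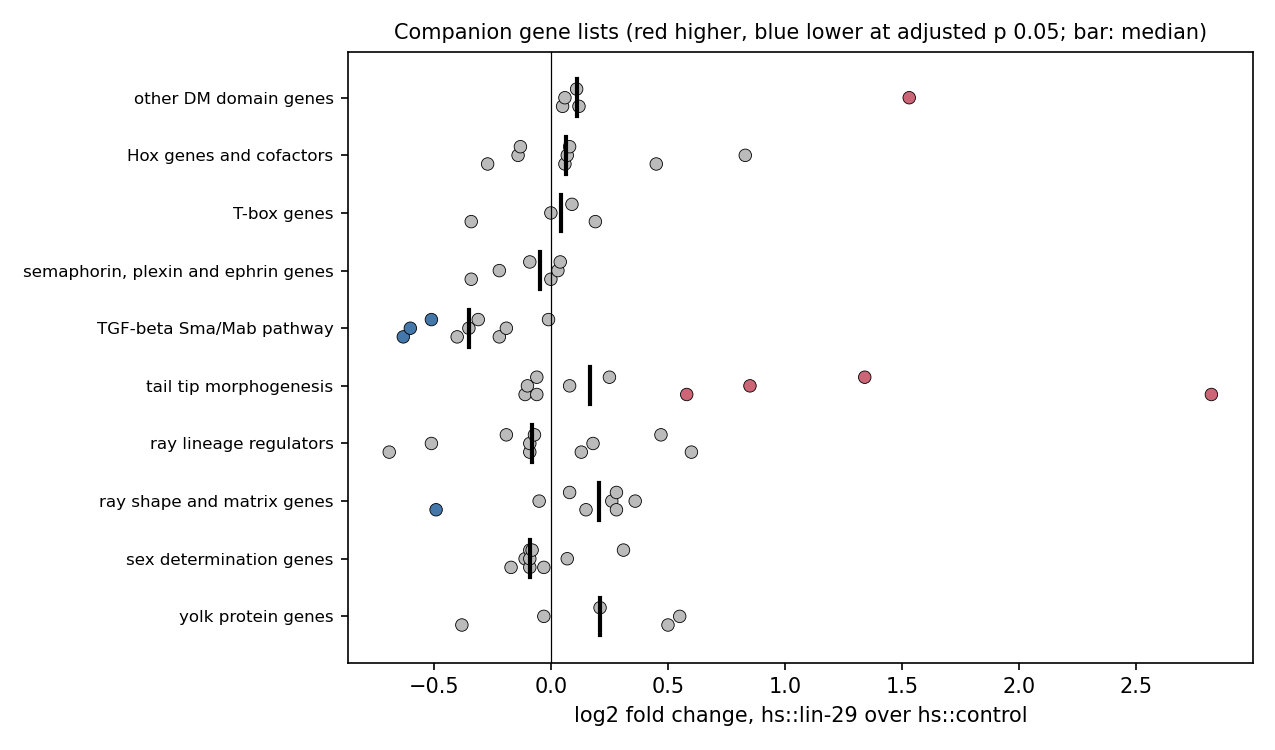
Log2 fold change of hs::lin-29 over hs::control for each tested gene of the 10 companion lists; red points passed higher and blue points lower at an adjusted p of 0.05 in edgeR, grey points did not pass, and bars are medians. The TGF-beta list lies below 0 in all 9 genes, with lon-1 at -0.01, beside 48.6% of all genes below 0. The rises are dmd-8 and 4 genes of the tail tip list, which holds lin-29 itself.

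Markers of other tissues were read beside these results. The 9 hypodermis and seam markers in the tables, cell types in which mab-7 and the ray lineage act, summed to 1330 to 1500 CPM in hs::control and 1170 to 1200 CPM in hs::lin-29. None of the 6 tested passed in edgeR, DESeq2 or limma-voom or had an unadjusted p under 0.05 in edgeR, and elt-1, elt-3 and ajm-1 were listed at 0. The smallest p were those of the cuticle collagen genes rol-6, at 694 ± 74.8 and 559 ± 108 CPM, and dpy-7, at 308 ± 45.5 and 240 ± 63.5 CPM. The part of that difference in the values of mab-21 and mab-7 was not tested. The neuron markers summed to 840 to 898 CPM and 900 to 1040 CPM, with none of 7 past the threshold in any of the 3 tools or under an unadjusted p of 0.05 in edgeR, and their part in the value of mab-3 was not tested. Nearest to the threshold among them were unc-64, at 4.58 ± 1.40 and 6.02 ± 0.676 CPM, and egl-21, at 391 ± 5.42 and 431 ± 37 CPM. The 11 markers of male ray and head neurons in the tables summed to 47.1 to 56.5 CPM in hs::control and 51 to 55 CPM in hs::lin-29. Most of this was nlp-8 alone, at 33.5 ± 1.81 and 31.6 ± 1.06 CPM. The defining genes pkd-2 and lov-1 had at most 16 reads in any library, so the sum is no level of male neurons. None of the 7 tested passed in the 3 tools or had an unadjusted p under 0.05 in edgeR, and the smallest p were those of trf-1, at 0.819 ± 0.235 and 1.31 ± 0.217 CPM, and cwp-5, at 2.17 ± 0.832 and 2.77 ± 0.352 CPM.

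The intestine, in which mab-3 acts in males, had 1 marker past the threshold among 8 tested. elt-2, which encodes the GATA factor of the intestine, rose from 9.97, 14.3 and 13.8 CPM in hs::control to 42, 32 and 28.6 CPM in hs::lin-29, with no overlap. Its change was 2.69-fold (log2 fold change 1.43, SE 0.18, edgeR adjusted p 0.00256, and 5.651e-10 to 0.01668 over the 15 alternatives, all past the threshold). Over all genes 2.46% passed higher. The other 7 did not pass, and the sign was negative for 6 of the 8, as for 48.6% of all genes. An unadjusted p under 0.05 in edgeR was found for 2, elt-2 and, in the other direction, pho-1. The level of pho-1 was 71.0 ± 7.50 in hs::control and 54.3 ± 9.46 CPM in hs::lin-29 (log2 fold change -0.39, SE 0.14). The summed level of the 9 intestine markers in the tables overlapped between strains, at 6060 to 7710 and 5810 to 6990 CPM, and the part of the intestine in the value of mab-3 was not tested. Summed levels of body wall muscle, pharynx and germline markers overlapped too, and in each of these lists none passed in edgeR, DESeq2 or limma-voom or had an unadjusted p under 0.05 in edgeR. The smallest p in muscle were those of unc-27 (log2 fold change 0.07) and mup-2 (0.07), in pharynx those of tni-4 (-0.16) and tnc-2 (-0.16) and in germline those of gld-1 (0.30) and htp-3 (0.29).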

How the data were processed

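The authors deposited 1 table per library, holding unnormalized read counts for each gene name. Per the submitters' processing notes, the tools were HTSeq 0.6.1p1, STAR 2.5.2b and DESeq2 1.12.3 and the build was ce10, with no roles stated. The annotation and the strand setting were not given in the sources used here. Counts assigned to no single gene, 39.7% to 41.8% per library, were left out. WBcel235 (Ensembl) served for exon lengths, transcript numbers and overlaps only; 38131 names matched. No sequences are printed.

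Genes were kept by filterByExpr (minimum count 10, total 15), scaled by TMM and tested two-sided with the robust quasi-likelihood test of edgeR 4.0.16, with strain as the only term and an adjusted p of 0.05. SE is the absolute log2 fold change over the square root of F. Counts of replicates differed beyond sampling noise, with a chi-square of at least 10.2 per degree of freedom. On simulated counts for this comparison (12808 genes, 200 changed) the test recovered 23.2% of 1.5-fold, 74.5% of 2-fold, 97.3% of 4-fold and 100% of 8-fold changes, with 12 false among 154 calls. Alternatives were other scalings and filters, DESeq2 1.42.0, limma-voom (limma 3.58.1), no robust estimation, a replicate block and each library left out, with R 4.3.3, Python 3.11.15 and matplotlib 3.10.9.

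Members and lists were chosen with earlier results of these data known. Genes named are all members and mab genes; lin-29, mab-10 and lin-41; per list up to 4 past the threshold with at least 1 CPM, or else the 2 with the smallest p; and the 2 genes nearest each member. sel-2 and further list genes given as values were named after their values were seen.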

Additional observations from a re-analysis of the deposited data

How the results depend on the processing

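The count of members past the threshold, 2, was 1 with library totals only and 1 with a replicate block, and ran from 0 to 2 with 1 library left out. The 321 genes higher numbered 206 with the block and 135 to 327 with 1 library left out, and the 540 lower numbered 350 and 324 to 567. Other scalings, filters and tools kept both counts within 1.5 times. The log2 fold change of mab-9 turned to -0.05 and -0.06 (hs::control replicate 1 or hs::lin-29 replicate 2 left out), between -0.06 and 0.18 over left-out libraries. The sample titles call the replicates trials 1 to 3 in both strains, and the labels do not say whether same-numbered trials were run together. Same-numbered deviations correlated at 0.01, -0.36 and 0.24, and not every library correlated best with its own number. With 3 libraries per strain these values cannot show whether the trials were paired, so the results with the block are given beside those without it. Under the block mab-3, tsp-15 and all 3 calls in the TGF-beta list were lost, and the tail tip list held 2. Low counts limit mab-3, with 37 to 92 reads per library.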

Other observations

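Genes that decide sex, upstream of mab-3 and dmd-3, were also counted. None of 9 sex determination genes tested passed in edgeR, DESeq2 or limma-voom, and 1 had an unadjusted p under 0.05 in edgeR. It was the nuclear receptor gene sex-1, which reads the number of X chromosomes, at 15.2 ± 0.886 CPM in hs::control and 18.8 ± 1.10 CPM in hs::lin-29 (log2 fold change 0.31, SE 0.12). fem-2 was next, at 69.4 ± 0.843 and 61.8 ± 0.232 CPM. The male-determining genes her-1 and xol-1 were listed at 0 in every library, as was tra-2, and no level is read from them.

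Most sperm markers were near the limit of counting. Of 25 sperm markers 1 had enough reads to be tested, spe-9, at 6.21 ± 1.35 and 6.53 ± 0.595 CPM, and the 25 together summed to 6.41 to 9.46 CPM in hs::control and 8.06 to 9.60 CPM in hs::lin-29. Most of the 25 are msp genes, each with 0.384 kb of exon. Reads that aligned to more than 1 place, 17% to 19.2% per library, were left out. Whether reads of the msp genes were lost in this way was not tested, so the sum is no level of sperm genes.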
